A study of Mus musculus with 9 samples.

Results

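Ubiquitin-conjugating enzymes, called E2 enzymes, are described here through their transcripts in RNA precipitates and total RNA of the embryonic mouse cortex. The members were all genes whose symbol starts with Ube2 and continues with a lower-case letter. Each was read from a row of the array that carries that symbol alone, and where a gene had several such rows, from the row with the highest mean over the 9 arrays. This gave 33 of 22180 genes. The rule uses symbols and mean signals, not differences between groups. The symbol is not a perfect guide to the enzyme class. Ube2v1 and Ube2v2 are E2 variants without a catalytic cysteine, and Ube2cbp, also known as Ube3d, encodes a ubiquitin ligase that binds an E2. Ube2e1 and Ube2g2 share their rows with other symbols, so the rule leaves them out.

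The study asked which cortical mRNAs associate with Pum2, one of the Pumilio proteins, which bind mRNAs and restrain their translation. All arrays used wild-type CD1 mouse cortex from embryonic days 12 to 13, with no transgene or treatment. Input was total RNA with no antibody, the IgG group was RNA precipitated with normal rabbit IgG as the background of the method, and the Pum2 group was RNA precipitated with a rabbit antibody to Pumilio2. Each group had 3 arrays, labelled as biological replicates. The sources used here do not say how many embryos went into each replicate, and a precipitate reports RNA that stays with an antibody on beads, not binding at a known site.

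Ubiquitin is passed along a relay. An E1 enzyme activates it, an E2 enzyme carries it on a cysteine, and an E3 ligase brings the loaded E2 to a substrate. The E2 often decides which kind of chain is built, and with it whether the substrate is sent to the proteasome, recruited to DNA repair or marked in another way. In the developing cortex this relay times the cell cycle of precursors and removes fate regulators during differentiation. A few E2 enzymes carry not ubiquitin but relatives such as SUMO, NEDD8 or ISG15.

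Values are log2 signals, so that a difference of 1 is a doubling, and a difference is given ± its standard error from limma, fitted on all 22180 genes with 3 arrays per group. A gene was called when its Benjamini-Hochberg p-value over those genes was below 0.05. Across genes, which are not independent replicates, Pearson r within a group was 0.994 to 0.996 and between groups 0.977 to 0.989, so no array stood apart. In input the mean signal of 7 radial precursor markers was 9.53 to 9.57 and that of 6 young neuron markers 9.24 to 9.34, as the tissue label says, and that of 5 ganglionic eminence markers 6.01 to 6.16. With Pum2 these means were 9.79 to 9.90, 9.39 to 9.48 and 6.32 to 6.49, and with IgG 9.39 to 9.50, 9.38 to 9.46 and 6.03 to 6.26, so the first and the third were above both controls without overlap. Single markers differed within these lists. Against IgG, 4 of the 7 precursor markers were called higher and 0 lower. Of the 5 ganglionic eminence markers only Dlx5 was called higher (1.14), and Gad2 was called lower (-0.41). Against input 5 precursor markers were called higher and Hes5 lower (-0.34). Of the 6 young neuron markers 2 were called higher than IgG and Neurod6 lower (-0.76). Compared with input, 4 of these 6 were called higher, and Neurod6 (-0.56) and Stmn2 (-0.47) lower. Of all genes 19.4% were called higher than IgG and 11.4% lower, and 21.6% and 13.1% against input. Markers of other cell types also differed between the groups. The mean of 6 endothelial markers was 8.41 to 8.49 with Pum2, 7.76 to 8.16 with IgG and 7.79 to 7.89 in input, and that of 6 meningeal markers 8.01 to 8.11, 7.57 to 7.87 and 7.35 to 7.42. The mean of 6 microglial markers was 6.44 to 6.47, 6.09 to 6.32 and 6.25 to 6.39, and that of 2 red blood cell markers 7.94 to 8.59, 8.43 to 9.15 and 8.83 to 9.23. Of the 6 endothelial markers 2 were called higher than IgG and 0 lower. Of the 6 meningeal markers 3 were called higher than IgG and 0 lower, while Col1a1 gave 0.18, Col1a2 0.09 and Col3a1 0.00. Of the 6 microglial markers 2 were called higher than IgG and 0 lower, while Cx3cr1 gave -0.13, P2ry12 -0.04 and Aif1 0.03. The part of these markers in the E2 results was not tested. The IgG and Pum2 groups are precipitates, not samples of tissue RNA. For the markers, the number of cells, the RNA per cell and the RNA that stays with antibody and beads cannot be told apart.

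The E2 transcripts did not move as one family in the Pum2 precipitate. Compared with IgG, 9 of 33 rose (27.3%, beside 19.4% of all genes), 6 fell (18.2%, beside 11.4%) and 18 did not pass the test. The transcript with the largest rise was Ube2t of the Fanconi DNA repair pathway (0.94 ± 0.07, 1.91-fold), and the one with the largest fall was Ube2j1 of the endoplasmic reticulum (-0.77 ± 0.07, 1.7-fold). The members called made up 45.5%, beside 30.7% of all genes. E2 genes are brighter than most, and of those whose 9-array mean reached the median the share was 50% of 28 members beside 52.1% of genes, with 32.1% against 34.1% higher and 17.9% against 18% lower. The count of E2 genes with Pum2 is thus near the background of genes of such signal. The median difference was 0.05 over the 33 members and 0.04 over all genes.

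Arrays of the Pum2 and IgG groups did not overlap for 24 members, which is 72.7%, beside 41.3% of all genes. Among the brighter genes they did not overlap for 82.1% of 28 members, beside 64.4% of genes. Which direction held the majority changed with the scaling of the arrays and with the replicate block, and without some single arrays the split was even. The split of higher to lower was 9 to 6 as deposited, 11 to 5 after quantile normalization of the whole table was run again, and 7 to 9 with arrays centred on the brighter genes. It was 7 to 10 with quantile normalization over the named genes alone. In this order, these settings placed the median of all genes at 0.04, 0.19, -0.05 and 0.03. With the replicate number as a block the split was 7 to 8, without IgG replicate 1 it was 7 to 7, and without Pum2 replicate 1 it was 6 to 6.

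Compared with input, more E2 transcripts fell than rose. The Pum2 precipitate held 7 higher (21.2%, beside 21.6% of all genes) and 10 lower (30.3%, beside 13.1%) of 33, and 16 did not pass the test. Ube2s, which lengthens the chains that drive mitotic exit, fell most (-1.01 ± 0.10, 2.02-fold), and Ube2o, a large enzyme that acts as both E2 and E3, rose most (0.83 ± 0.15, 1.78-fold). The called share was 51.5%, beside 34.7% of all genes. Among the brighter genes it was 60.7% of 28 members beside 58.8% of genes. Here 25% of the 28 were higher, beside 37% of genes, and 35.7% were lower, beside 21.9%. Arrays did not overlap for 75.8% of members, beside 45.3% of all genes, and for 82.1% of the brighter members, beside 70.9%. The median was -0.18 over the members and 0.07 over all genes. Both comparisons share the Pum2 arrays, so they are not independent. The split was 8 to 11 after quantile normalization was run again and 6 to 15 with centring on the brighter genes, with the median of all genes at 0.19 and -0.01. Without Ube2cbp, a ligase gene, the lower count was 9.

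Nonspecific IgG also differed from input, mainly downwards. Only 2 of 33 members were higher (6.06%, beside 8.25% of all genes) and 9 were lower (27.3%, beside 9.72%), and 22 did not pass the test. The called share was 33.3%, beside 18% of all genes. Among the brighter genes it was 35.7% of 28 members beside 31.6%, with 32.1% lower beside 17.8% and 3.57% higher beside 13.8%. Arrays did not overlap for 72.7% of members, beside 32% of all genes, and for 75% of the brighter members, beside 51.3%. The median over the members was -0.19 and over all genes 0.02. The lowest value was that of Ube2a (-0.94 ± 0.09, 1.91-fold), a partner of Rad18 at stalled replication forks. The higher count was 1 without input replicate 1, input replicate 2, IgG replicate 2 or IgG replicate 3, and the lower count was 6 without input replicate 1. This comparison gives the difference of the nonspecific precipitate from total RNA, beside which the following members are read. What produced that difference was not tested.

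**Figure D1:**
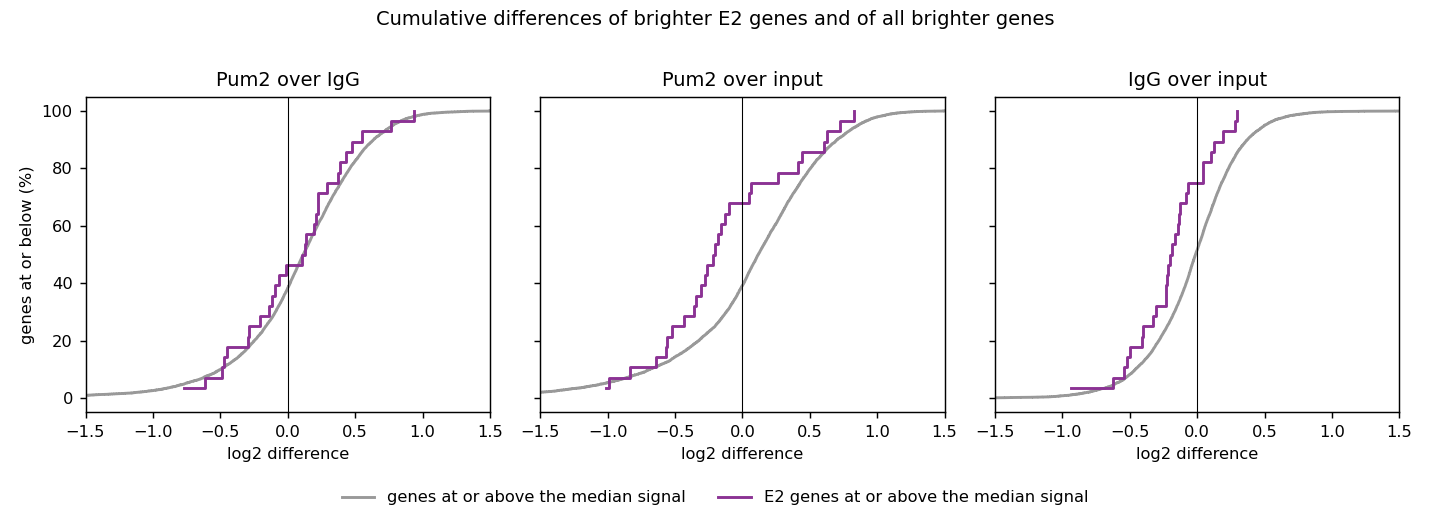
Cumulative share of genes (vertical axis, percent) at or below a log2 difference (horizontal axis), for the 28 E2 genes and for all genes at or above the median signal, in the 3 comparisons. The curves lie close for Pum2 over IgG, with called shares of 50% and 52.1%, while the E2 curve lies to the left in both comparisons with input, where 35.7% and 32.1% of the E2 genes were lower.

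**Figure D2:**
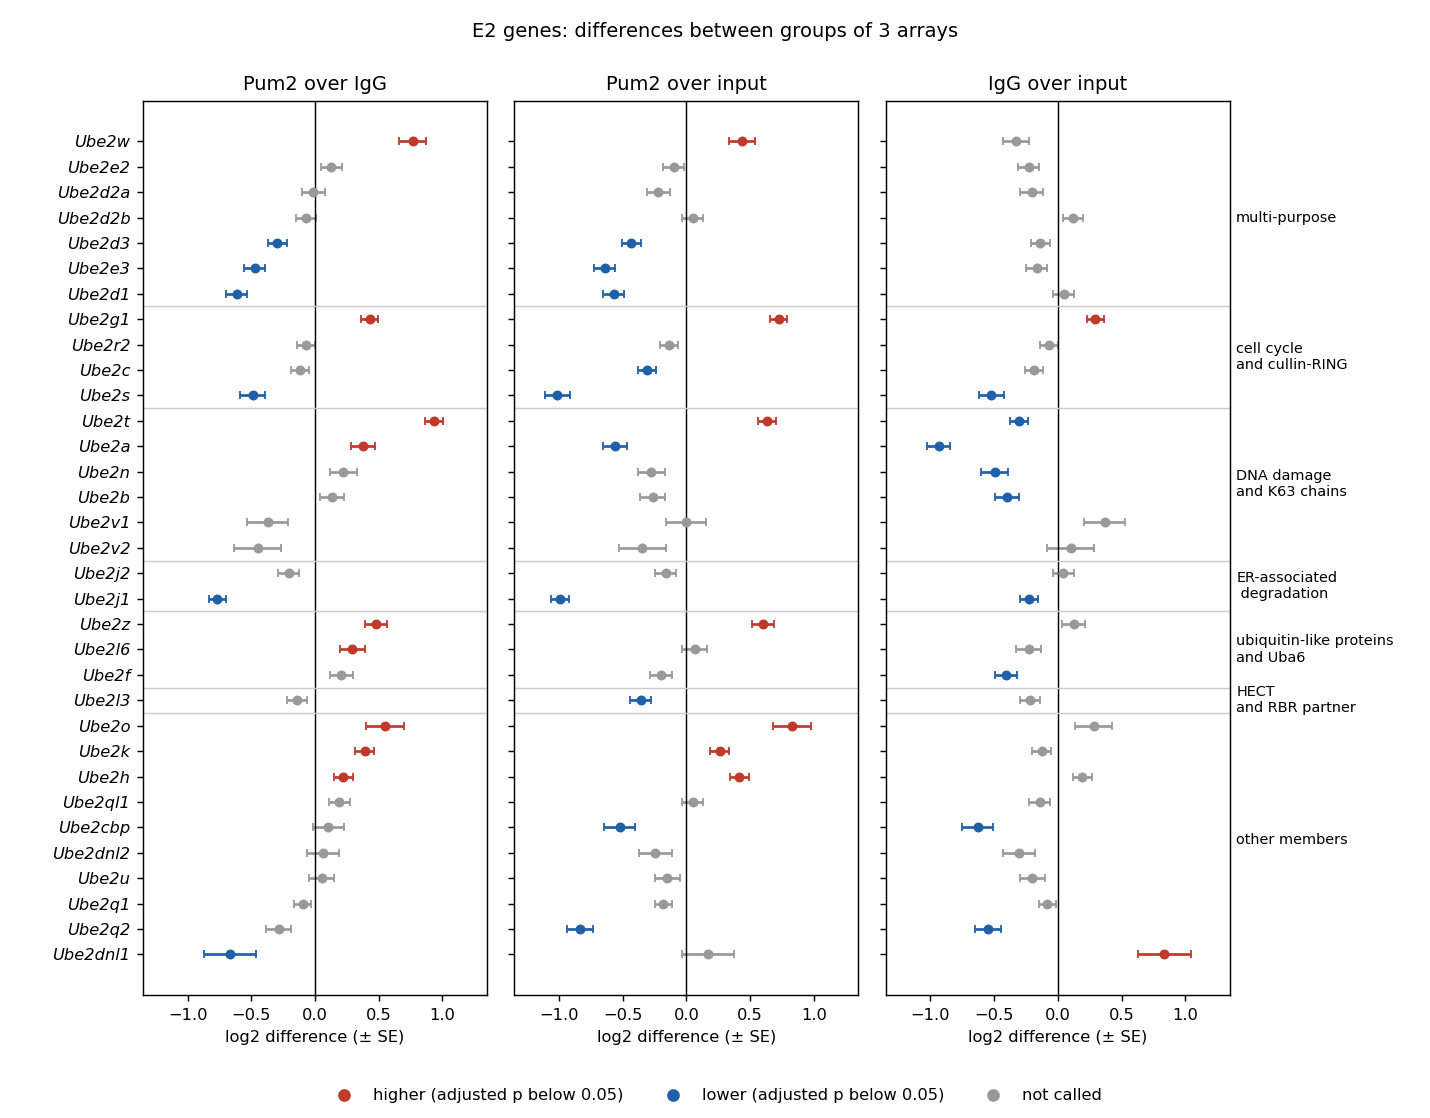
Log2 difference ± standard error (horizontal axis) of the 33 E2 genes, grouped by role, in the 3 comparisons of 3 against 3 arrays; red points were higher and blue points lower at an adjusted p below 0.05. Ube2t and Ube2w lie farthest to the right in Pum2 over IgG at 0.94 and 0.77, and Ube2j1 farthest to the left at -0.77.

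The multi-purpose E2 enzymes, which work with many E3 ligases, held both directions: of 7 members 1 rose and 3 fell against IgG, and the same numbers were found against input. Of all genes 19.4% rose and 11.4% fell against IgG, and 21.6% and 13.1% against input. Among the brighter genes these shares were 34.1%, 18%, 37% and 21.9%. Ube2w, which attaches ubiquitin to the amino terminus of proteins, had signals of 9.85, 9.54 and 9.80 in the Pum2 precipitates, 8.90, 8.93 and 9.06 in IgG and 9.40, 9.32 and 9.15 in input. All 3 Pum2 arrays lay above all other arrays. It exceeded IgG by 0.77 ± 0.10 (adjusted p = 3.38e-04) and input by 0.44 ± 0.10 (adjusted p = 0.00736), and its difference between IgG and input was -0.33 ± 0.10 (adjusted p = 0.0539). That last value was called without input replicate 3 (-0.40) or Pum2 replicate 2 (-0.33).

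Ube2d1 belongs to the Ube2d group, the E2 enzymes most often used to place a first ubiquitin. Its signal was 9.87, 10.10 and 10.09 in the Pum2 precipitates, 10.65, 10.67 and 10.58 in IgG and 10.63, 10.59 and 10.55 in input. The Pum2 arrays were the lowest, while IgG and input overlapped. The difference was -0.62 ± 0.08 from IgG and -0.57 ± 0.08 from input (adjusted p = 3.03e-04 and 3.44e-04), and IgG over input gave 0.05 ± 0.08 (adjusted p = 0.76). Ube2e3, of a related group with a longer amino terminus, read 9.65, 9.76 and 9.83 in the Pum2 precipitates, 10.31, 10.11 and 10.24 in IgG and 10.32, 10.42 and 10.42 in input. Here too the Pum2 arrays lay below the rest. It fell by 0.47 ± 0.08 against IgG and by 0.64 ± 0.08 against input (adjusted p = 0.00156 and 1.69e-04). Ube2d3, another of the Ube2d group, fell less, with -0.30 ± 0.07 and -0.43 ± 0.07 (adjusted p = 0.0125 and 0.00112).

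Close relatives of these genes did not pass the test. Ube2d2a, a paralog of Ube2d1 and Ube2d3, differed from IgG by -0.01 ± 0.09 and from input by -0.22 ± 0.09 (adjusted p = 0.933 and 0.0861). It has 2 further rows on the array, which gave 0.02 and 0.29 against IgG (adjusted p = 0.916 and 0.131, over all rows of the table). The dim row of these gave -0.61 in IgG over input (adjusted p = 0.0152), where the row used gave -0.21, and the mean of the 3 rows was called lower in that comparison, at -0.30. Ube2e2 differed from IgG by 0.13 ± 0.08 and from input by -0.10 ± 0.08, and Ube2d2b, whose signal of 4.69 to 4.97 is below the median of all genes (6.08), by -0.07 ± 0.08 and 0.05 ± 0.08. Probes of such near relatives can cross-hybridise, so the values of single Ube2d genes are less certain, and whether any of them differ from each other was not tested.

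Of the 4 E2 genes of the cell cycle and of cullin-RING ligases, 1 rose and 1 fell against IgG. The shares were 19.4% and 11.4% over all genes, and 34.1% and 18% over the brighter genes. Ube2g1, which extends chains on substrates of cullin-RING ligases, had signals of 11.50, 11.39 and 11.46 in the Pum2 precipitates, 10.97, 11.07 and 11.01 in IgG and 10.74, 10.70 and 10.74 in input. The groups were ordered without overlap, input lowest and Pum2 highest. It rose over IgG by 0.43 ± 0.07 and over input by 0.72 ± 0.07 (adjusted p = 8.8e-04 and 2.17e-05), and IgG itself exceeded input by 0.30 ± 0.07 (adjusted p = 0.0131). It was the member called higher in each of the 3 comparisons. Ube2r2, a relative of Cdc34 that works with the same ligases, differed by -0.07 ± 0.07 from IgG and -0.13 ± 0.07 from input (adjusted p = 0.537 and 0.186).

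Ube2c and Ube2s serve the anaphase-promoting complex, the ligase that ends mitosis: Ube2c starts the chain and Ube2s lengthens it. Ube2s read 9.94, 9.96 and 10.23 in the Pum2 precipitates, 10.55, 10.51 and 10.53 in IgG and 11.16, 10.92 and 11.09 in input. These groups were also ordered without overlap, but with Pum2 lowest and input highest. Ube2s fell by 0.49 ± 0.10 against IgG (adjusted p = 0.00357) and by 1.01 ± 0.10 against input (adjusted p = 2.62e-05). From input to IgG the fall was 0.52 ± 0.10 (difference -0.52, adjusted p = 0.00467). The difference of Pum2 from IgG and that of IgG from input were thus of similar size. The signal of Ube2c was 9.61, 9.50 and 9.65 in the Pum2 precipitates, 9.74, 9.69 and 9.67 in IgG and 9.85, 9.91 and 9.92 in input. The ranges of its 3 groups did not overlap, but they lay close together. Ube2c fell against input (-0.31 ± 0.07, adjusted p = 0.00623), while its values against IgG and in IgG over input were -0.12 ± 0.07 and -0.19 ± 0.07 (adjusted p = 0.257 and 0.0956).

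**Figure D3:**
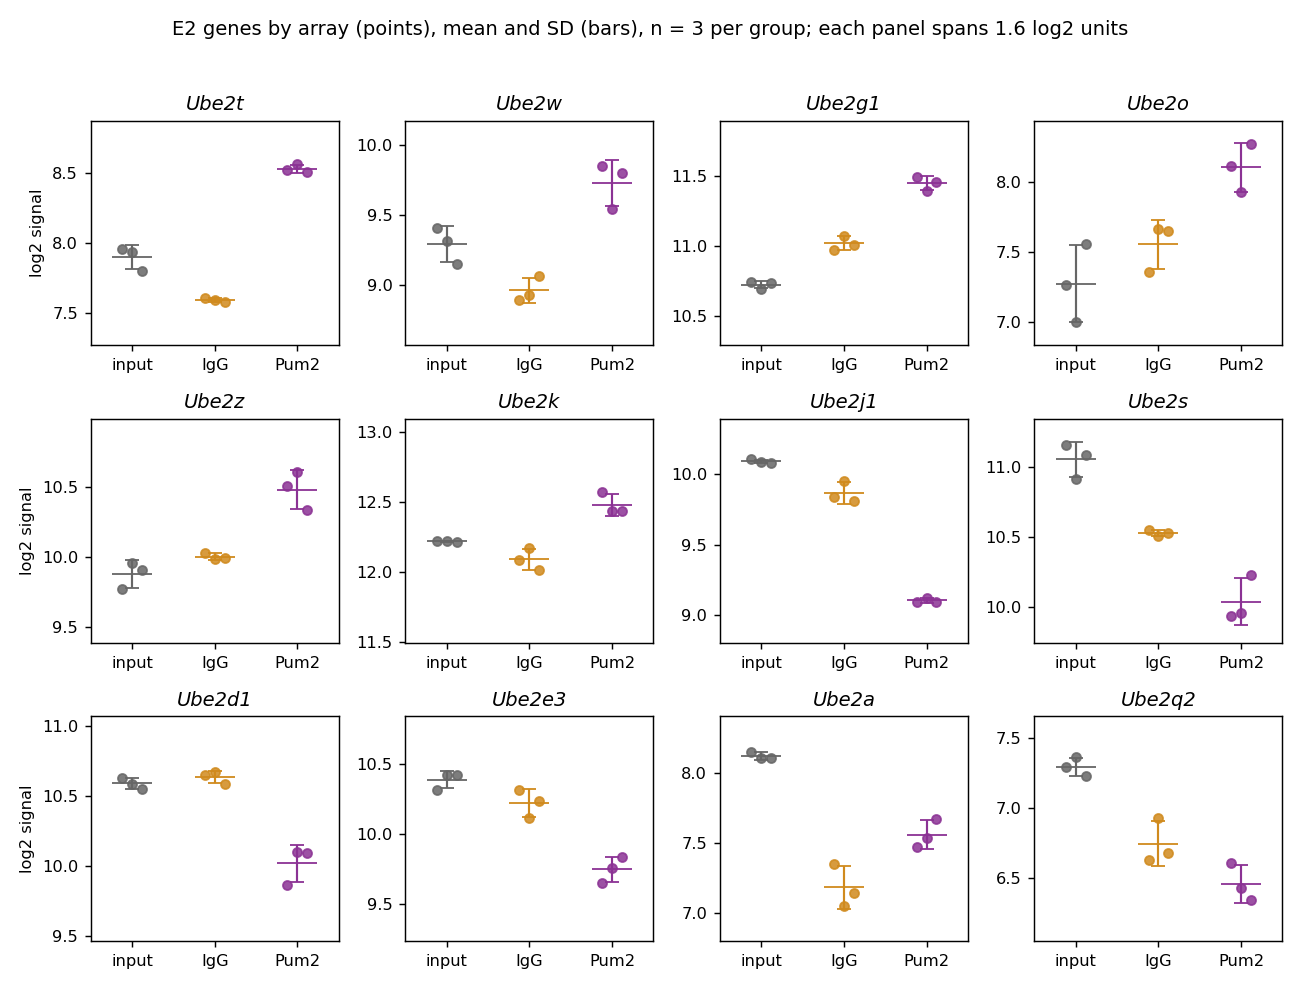
Log2 signal (vertical axis) of 12 E2 genes on each array of input, IgG and Pum2 (points), with the mean and SD of each group (n = 3); every panel spans the same height. The Pum2 arrays lie above both controls for Ube2t, Ube2w, Ube2g1, Ube2o, Ube2z and Ube2k, below both for Ube2j1, Ube2s, Ube2d1, Ube2e3 and Ube2q2, and between them for Ube2a, at 7.47 to 7.68.

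The E2 genes of DNA damage signalling included the largest rise. Ube2t loads ubiquitin on the central protein of the Fanconi anaemia pathway, which repairs DNA crosslinks. Its signal was 8.52, 8.56 and 8.51 in the Pum2 precipitates, 7.61, 7.59 and 7.58 in IgG and 7.96, 7.94 and 7.80 in input. The Pum2 arrays formed a tight group above input, and IgG was the lowest. Ube2t exceeded IgG by 0.94 ± 0.07 (1.91-fold, adjusted p = 1.2e-05) and input by 0.63 ± 0.07 (1.55-fold, adjusted p = 6.79e-05). From input to IgG it fell by 0.31 ± 0.07 (adjusted p = 0.0134). Without input replicate 1 that fall was 0.28 (difference -0.28, adjusted p = 0.0503) and no longer called. Both calls with Pum2 were kept in each of the 18 alternatives, over which its difference from IgG ranged from 0.84 to 0.98.

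Ube2a and Ube2b encode the mammalian forms of yeast Rad6, which ubiquitinate the replication clamp with Rad18 and histones with Rnf20 and Rnf40. Ube2a read 7.47, 7.54 and 7.68 in the Pum2 precipitates, 7.35, 7.06 and 7.15 in IgG and 8.15, 8.11 and 8.11 in input. Pum2 arrays lay between the others, above IgG and below input. The call therefore had opposite signs, higher than IgG by 0.38 ± 0.09 (adjusted p = 0.0108) and lower than input with -0.56 ± 0.09 (adjusted p = 8.57e-04). Its paralog Ube2b had values of 0.14 ± 0.10 and -0.26 ± 0.10 in the same comparisons (adjusted p = 0.343 and 0.0576) and was lower in IgG than in input (-0.40 ± 0.10, adjusted p = 0.0162). That call of Ube2b was lost without input replicate 1 (-0.37) or IgG replicate 3 (-0.33), and its difference between Pum2 and input was called without IgG replicate 2 or IgG replicate 3 (-0.26 in both).

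Ube2n builds a chain type used in repair and immune signalling, and needs Ube2v1 or Ube2v2 as its partner. It differed from IgG by 0.22 ± 0.11 and from input by -0.28 ± 0.11 (adjusted p = 0.152 and 0.0707), and was lower in IgG than in input (-0.50 ± 0.11, adjusted p = 0.00902). Leaving out IgG replicate 3 made its difference from IgG a call (0.32), and leaving out IgG replicate 1 or 3 did so against input (-0.28). Ube2v1 and Ube2v2 had the widest errors among the DNA damage members, with -0.37 ± 0.16 and -0.45 ± 0.18 against IgG (adjusted p = 0.115 and 0.0957), and neither passed the test in any of the 3 comparisons. With the replicate number as a block both were called lower than IgG (-0.37 and -0.45), and Ube2v2 was also called with a filter at the median signal (-0.45) or centring on the brighter genes (-0.54). In this group of 6 genes, 2 rose against IgG, 1 rose and 1 fell against input, and 4 fell in IgG over input. Of all genes 19.4% rose against IgG, 21.6% rose and 13.1% fell against input, and 9.72% fell in IgG over input. Among the brighter genes these shares were 34.1%, 37%, 21.9% and 17.8%.

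Ube2j1 and Ube2j2 sit in the membrane of the endoplasmic reticulum and act in the removal of misfolded proteins. Ube2j1 had signals of 9.09, 9.12 and 9.09 in the Pum2 precipitates, 9.84, 9.96 and 9.81 in IgG and 10.11, 10.09 and 10.08 in input. The Pum2 arrays lay below every other array by a wide margin relative to their spread. Ube2j1 fell by 0.77 ± 0.07 against IgG (1.7-fold lower, adjusted p = 3.15e-05) and by 0.99 ± 0.07 against input (1.99-fold lower, adjusted p = 3.61e-06). In IgG over input it stood at -0.23 ± 0.07 (adjusted p = 0.047), a call that was lost without any of 8 of the 9 arrays, all but IgG replicate 2, with values of -0.23 to -0.20, and in 14 of the 18 alternatives. Ube2j2 gave -0.21 ± 0.08 against IgG and -0.16 ± 0.08 against input (adjusted p = 0.0889 and 0.166), although its Pum2 arrays, at 6.53, 6.81 and 6.74, lay below the others.

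Among the E2 genes of ubiquitin relatives and of the alternative E1 enzyme Uba6, 2 of 3 rose over IgG. The share that rose was 19.4% of all genes and 34.1% of the brighter genes. Ube2z, which receives ubiquitin or the ubiquitin relative FAT10 from Uba6, read 10.50, 10.61 and 10.34 in the Pum2 precipitates, 10.03, 9.99 and 9.99 in IgG and 9.77, 9.96 and 9.91 in input. Pum2 arrays were above all others. It exceeded IgG by 0.48 ± 0.09 and input by 0.60 ± 0.09 (adjusted p = 0.00218 and 3.85e-04), and IgG over input gave 0.12 ± 0.09 (adjusted p = 0.398). The transcript of Uba6 itself did not pass the test (0.04 ± 0.15 and 0.30 ± 0.15, adjusted p = 0.895 and 0.17).

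Ube2l6, the E2 of the interferon-induced modifier ISG15, read 7.13, 7.28 and 7.17 in the Pum2 precipitates, 7.12, 6.77 and 6.80 in IgG and 7.10, 7.16 and 7.12 in input. The Pum2 arrays lay above IgG by a small margin and overlapped input. Its rise over IgG was 0.29 ± 0.10 (adjusted p = 0.047). That call was lost in 13 of the 18 alternatives, among them centring on the brighter genes (0.20) and leaving out any array other than IgG replicate 1 (0.23 to 0.33). Against input it gave 0.07 ± 0.10 (adjusted p = 0.669), and in IgG over input -0.23 ± 0.10, which was called without IgG replicate 1 (-0.34). Ube2f, an E2 for NEDD8, differed from IgG by 0.21 ± 0.09 and from input by -0.20 ± 0.09 (adjusted p = 0.109 and 0.112). It was lower in IgG than in input (-0.41 ± 0.09, adjusted p = 0.00988), and called lower with Pum2 than in input without input replicate 1 (-0.27). After quantile normalization was run again Ube2f was called higher with Pum2 than with IgG (0.38).

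Ube2l3 supplies the ligases of the HECT and RBR classes, parkin among them, which take ubiquitin onto their own cysteine. On the row used its signal was 11.92, 11.80 and 11.90 in the Pum2 precipitates, 12.06, 12.08 and 11.91 in IgG and 12.20, 12.34 and 12.17 in input. Pum2 and IgG overlapped, and both lay below input. It fell against input (-0.36 ± 0.08, adjusted p = 0.00577) and gave -0.14 ± 0.08 against IgG (adjusted p = 0.237). The gene has 2 further rows, with -0.10 and -0.12 against input (adjusted p = 0.409 and 0.344, over all rows), so the fall rests on 1 of 3 rows. With the mean of its rows the difference was -0.19 and was not called, and neither was the -0.18 after quantile normalization over the named genes alone.

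The 10 remaining members held 3 rises and 1 fall against IgG. Rises and falls made up 19.4% and 11.4% of all genes, and 34.1% and 18% of the brighter genes. Ube2o, which clears excess ribosomal proteins in maturing red cells, read 8.11, 7.93 and 8.27 in the Pum2 precipitates, 7.35, 7.66 and 7.65 in IgG and 7.27, 7.00 and 7.56 in input. The Pum2 arrays were the highest, and IgG and input overlapped with a wide spread. It exceeded IgG by 0.55 ± 0.15 (adjusted p = 0.0181) and input by 0.83 ± 0.15 (adjusted p = 0.00147). The call against IgG was lost without IgG replicate 1 (0.45), Pum2 replicate 1 (0.55) or Pum2 replicate 3 (0.46). Ube2k, an E2 that binds huntingtin and builds chains for the proteasome on its own, read 12.57, 12.44 and 12.44 in the Pum2 precipitates, 12.09, 12.17 and 12.02 in IgG and 12.22, 12.22 and 12.22 in input. Again the Pum2 arrays were highest. Ube2k exceeded IgG by 0.39 ± 0.07 and input by 0.26 ± 0.07 (adjusted p = 0.00257 and 0.0183), the second not called without Pum2 replicate 1 (0.22) or with centring on the brighter genes (0.19).

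Ube2h, the E2 of the CTLH ligase complex, read 8.23, 8.28 and 8.27 in the Pum2 precipitates, 8.05, 7.94 and 8.12 in IgG and 7.92, 7.83 and 7.79 in input. On this row the groups were ordered input, IgG, Pum2 without overlap. It rose over input by 0.42 ± 0.07 (adjusted p = 0.00146). Its rise over IgG, 0.22 ± 0.07 (adjusted p = 0.045), was lost in 13 of the 18 alternatives. These included centring on the brighter genes (0.13), the replicate number as a block (0.22) and leaving out any array other than IgG replicate 3 (0.18 to 0.24). A dimmer row of Ube2h gave 0.56 against IgG and 0.16 against input (adjusted p = 0.0108 and 0.425, over all rows). Over all rows, the limma adjusted p of the row used was 0.0615 against IgG and 0.0034 against input. Both rows had positive differences of Pum2 from both controls, but opposite signs in IgG over input. There the row used gave 0.19 and the dimmer row -0.40 (limma adjusted p = 0.15 and 0.0745, over all rows). Whether the rows differ was not tested.

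Ube2q2, of a little-studied group with an extended amino terminus, read 6.61, 6.43 and 6.34 in the Pum2 precipitates, 6.63, 6.93 and 6.68 in IgG and 7.29, 7.36 and 7.23 in input. Input was clearly highest, and the Pum2 arrays lay just below IgG. It fell against input by 0.83 ± 0.10 (1.78-fold lower, adjusted p = 1.17e-04) and was also lower in IgG than in input, by 0.55 ± 0.10 (adjusted p = 0.00446). Its difference from IgG was -0.29 ± 0.10 (adjusted p = 0.0571), and was called without IgG replicate 1 (-0.34) or Pum2 replicate 1 (-0.36). It was -0.20 without IgG replicate 2 and -0.09 after quantile normalization was run again, and neither was called. Its relatives Ube2q1 and Ube2ql1 gave -0.10 ± 0.07 and 0.19 ± 0.08 against IgG (adjusted p = 0.318 and 0.111). The ligase gene Ube2cbp fell against input with Pum2 (-0.52 ± 0.12, adjusted p = 0.00651) and with IgG (-0.63 ± 0.12, adjusted p = 0.0055), and gave 0.10 ± 0.12 between the precipitates.

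The last members had signals in the lower part of the array. Ube2dnl1, with signals of 3.32, 3.32 and 3.37 in the Pum2 precipitates, 3.62, 4.26 and 4.13 in IgG and 2.84, 3.01 and 3.64 in input, was lower than IgG (-0.67 ± 0.21, adjusted p = 0.0327) and higher in IgG than in input (0.84 ± 0.21, adjusted p = 0.0181). Pum2 and input overlapped, as did IgG and input, and the mean of Ube2dnl1 over all arrays exceeded that of 10% of genes. Its call against IgG was lost without IgG replicate 2 (-0.54), IgG replicate 3 (-0.60), Pum2 replicate 1 (-0.65), Pum2 replicate 2 (-0.66) or Pum2 replicate 3 (-0.68). The rise in IgG over input was lost without input replicate 1 (0.68), input replicate 2 (0.76), IgG replicate 2 (0.71) or IgG replicate 3 (0.77). Ube2dnl2 and Ube2u, also dim, gave 0.06 ± 0.13 and 0.05 ± 0.10 against IgG. The files give no measure of background, so whether these transcripts were present was not tested.

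The other genes of the relay were read from lists chosen with earlier results of these data known. Of 7 measured genes of ubiquitin relatives, 2 rose and 3 fell against IgG, and 0 rose and 3 fell against input. Sumo2, a SUMO gene, fell by 0.73 ± 0.09 and 0.98 ± 0.09 in these comparisons (adjusted p = 1.96e-04 and 2.03e-05). Ufm1, a modifier used at the endoplasmic reticulum, fell by 0.42 ± 0.07 and 0.86 ± 0.07, whereas Sumo3 rose over IgG (0.37 ± 0.08, adjusted p = 0.00714). Of limma's p-values for rises against input, 0 were below 0.05 without adjustment. The medians of this list were 0.12 against IgG and -0.19 against input, beside 0.04 and 0.07 over all genes. Of all genes 19.4% rose and 11.4% fell against IgG, and 21.6% rose and 13.1% fell against input. Among the brighter genes these shares were 34.1%, 18%, 37% and 21.9%.

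Of 7 measured E1 genes and partners, 3 rose and 0 fell against IgG. The shares were 19.4% and 11.4% of all genes, and 34.1% and 18% of the brighter genes. Atg7, the E1 of autophagy, exceeded IgG by 1.25 ± 0.08 and input by 0.98 ± 0.08 (adjusted p = 6.78e-06 and 1.24e-05). Mocs3, which activates the modifier Urm1, rose by 0.96 ± 0.12 and 0.77 ± 0.12 (adjusted p = 1.73e-04 and 4.52e-04). The NEDD8-activating subunit gene Uba3 rose over IgG (0.34 ± 0.09, adjusted p = 0.0132), and its partner Nae1 gave -0.23 ± 0.10 (adjusted p = 0.115). Uba7, the E1 for ISG15, gave -0.02 ± 0.11 (adjusted p = 0.937). Against input 2 of these 7 rose and 1 fell, beside 21.6% and 13.1% of all genes, and in IgG over input 0 rose and 0 fell, beside 8.25% and 9.72%. Among the brighter genes these shares were 37% and 21.9% against input, and 13.8% and 17.8% in IgG over input. At an unadjusted limma p below 0.05, 1 of the 7 was lower than in IgG, and 0 were higher and 3 lower in IgG over input. The medians were 0.13 against IgG and 0.15 against input.

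Of 9 measured genes listed as E2 genes or E2-like under other names, 3 rose and 1 fell against IgG, and 2 rose and 2 fell against input, with medians of 0.01 and -0.09. The shares of all genes were 19.4% and 11.4% against IgG and 21.6% and 13.1% against input. Among the brighter genes they were 34.1% and 18% against IgG and 37% and 21.9% against input. Tmem189 rose most (0.88 ± 0.09 and 0.86 ± 0.09). It encodes a lipid desaturase and was listed only because in humans its transcript can run on into UBE2V1. Ufc1, the E2 for Ufm1, rose over IgG by 0.39 ± 0.07 (adjusted p = 0.00228) and was lower in IgG than in input (-0.56 ± 0.07, adjusted p = 7.24e-04). Cdc34, the founding E2 of cullin-RING ligases, rose over IgG by 0.26 ± 0.08 and gave 0.21 ± 0.08 against input (adjusted p = 0.0391 and 0.0745). Tsg101, an inactive E2 relative of endosomal sorting, fell against both (-0.22 ± 0.06 and -0.33 ± 0.06).

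Of 50 measured ligase genes that partner with named E2 enzymes, 18 rose and 12 fell against IgG, and 24 rose and 10 fell against input, with medians of 0.13 and 0.21. Of all genes 19.4% rose and 11.4% fell against IgG and 21.6% and 13.1% against input, and of the brighter genes 34.1% and 18% against IgG and 37% and 21.9% against input. Anapc10, which helps the anaphase-promoting complex hold its substrates, fell most, by 1.34 ± 0.08 against IgG and 1.83 ± 0.08 against input (adjusted p = 4.9e-06 and 2.96e-07). Syvn1, the ligase of the endoplasmic reticulum that works with Ube2j1, had signals of 9.71, 9.78 and 9.72 in the Pum2 precipitates, 8.64, 8.50 and 8.63 in IgG and 8.40, 8.17 and 8.36 in input, ordered opposite to Ube2j1. It rose over IgG by 1.14 ± 0.08 (adjusted p = 1.01e-05). Rnf139, another ligase of that membrane, exceeded IgG by 0.80 ± 0.07 and input by 1.14 ± 0.07 (adjusted p = 3.25e-05 and 2.16e-06).

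**Figure D4:**
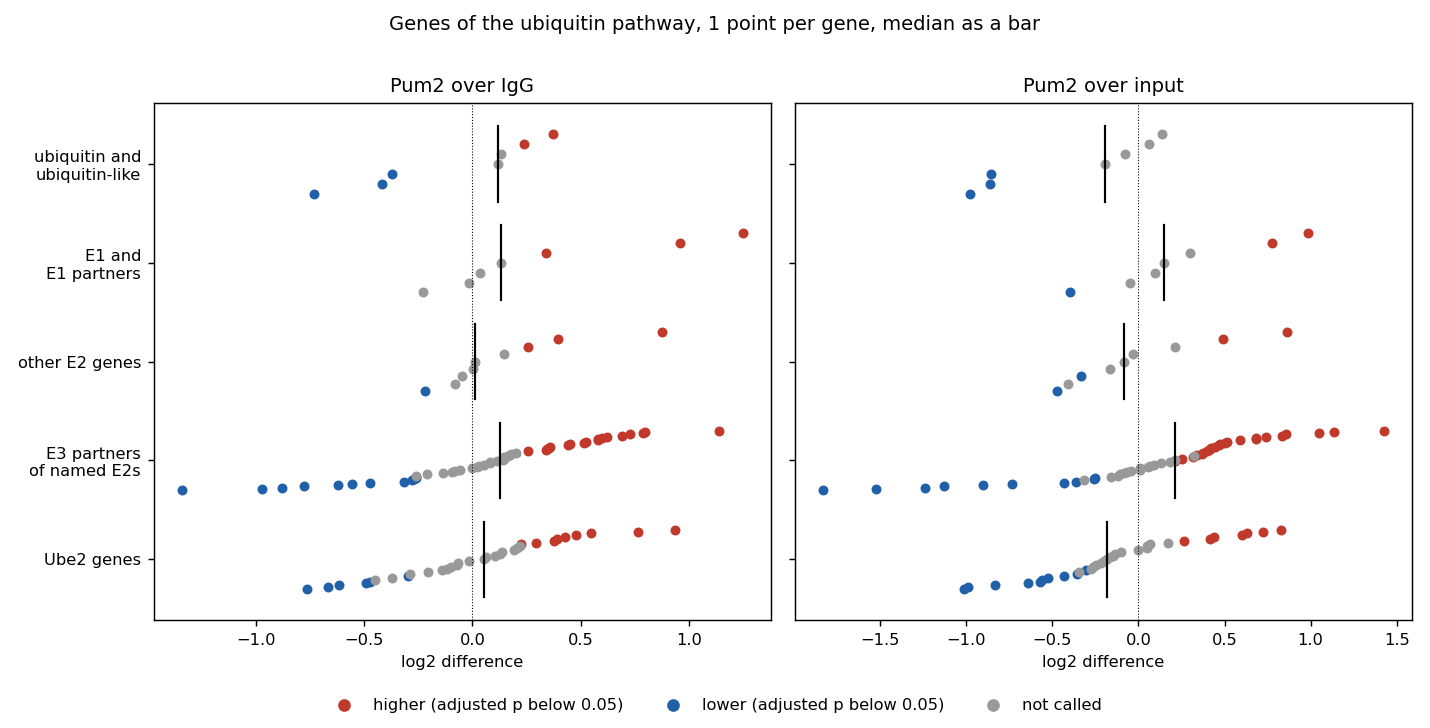
Log2 difference (horizontal axis) of each measured gene of 4 pathway lists and of the 33 Ube2 genes, in Pum2 over IgG and Pum2 over input, with called genes in colour and the median of each list as a bar. Every list but the E1 genes, with 3 rises and 0 falls against IgG, held calls in both directions against IgG.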

How the data were processed

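RNA of 9 samples was measured on the Mouse Gene 2.0 ST array, 3 each of input, IgG precipitate and Pum2 precipitate. The authors deposited log2 signals made with RMA in Affymetrix Expression Console, per the submitters' processing notes, and RMA corrects background, normalizes arrays and summarises probes. The sources used here give no versions and no build. Of 41345 rows, 23521 carry 1 symbol, 1814 several and 16010 are unnamed here. The row with the highest mean stood for each of 22180 genes, and 33 matched the symbol rule, of which 33 were found by Entrez identifier in RefSeq (GRCm38.p6). A single model of all arrays, without a replicate block and with 6 residual degrees of freedom, was fitted with limma 3.58.1 (R 4.3.3). Read depth does not apply, and precision is limited by 3 arrays per group, labelled as biological replicates. With groups of this size a p from exact permutation cannot go below 0.1, so it was not used. Members and lists were chosen with earlier results of these data known. Members given by array are up to 3 called genes of a role with the largest differences, and others of interest. For the pathway lists, the named genes are up to 3 with the largest moderated statistic against IgG, Cdc34 and the E1 partners of members. Alternatives were a replicate block, only 2 groups in the fit, a filter at the median signal (6.08), an intensity trend with a robust prior, 2 scalings, the mean of a gene's rows, all rows tested and leaving out each array. Replicate numbers were checked for pairing through the correlation, across genes, of deviations from the group means. It was 0.00 to 0.13 for Pum2 with IgG, 0.05 to 0.14 for Pum2 with input and 0.03 to 0.09 for IgG with input. These values were small but all positive, and arrays of unlike numbers were not compared. The check therefore cannot decide whether the numbers mark pairs, and the main model took none. No transcript or protein sequence was used.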

Additional observations from a re-analysis of the deposited data

How the results depend on the processing

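Of 43 calls over the 3 comparisons, 33 were kept in every alternative and 10 were lost in some, and no value changed sign where a call was made. Of 56 values not called, 23 were called under some alternative. A pair of alternatives was chosen after seeing the data: quantile normalization over the named genes alone and leaving out Ube2cbp. The first gave 10 E2 genes lower in Pum2 over IgG in place of 6, with 7 higher. The count higher in IgG over input was 1 with only the 2 groups in the fit, and 1 to 2 when each array was left out. Leaving out each array gave 6 to 9 higher and 5 to 7 lower in Pum2 over IgG, 6 to 7 and 10 to 12 in Pum2 over input, and 6 to 9 lower in IgG over input. With the replicate block, counts were 7 higher and 8 lower against IgG, 7 and 10 against input, and 2 and 8 in IgG over input. Ube2v1 and Ube2v2 were called lower than IgG with that block (-0.37 and -0.45), and the calls of Ube2h and Ube2l6 against IgG and of Ube2j1 in IgG over input were lost. The check used cannot decide whether the replicate numbers pair the arrays, so this is a description. No detection measure was used, so dim members are limited by an unknown background.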

Other observations

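Genes of the anaphase-promoting complex, the ligase served by Ube2c and Ube2s, were called in both directions. This group and the next were picked from the list of E3 partners after its values were seen. Of 13 subunits and coactivators measured, 7 were higher and 4 lower than IgG, with differences from -1.34 to 0.79, and 7 were higher and 4 lower than input, from -1.83 to 0.86. In these comparisons 30.7% and 34.7% of all genes and 52.1% and 58.8% of the genes at or above the median signal were called in either direction. Fzr1, a coactivator that holds the complex active outside mitosis, was higher by 0.79 ± 0.07, and the scaffold subunit gene Anapc2 by 0.69 ± 0.07 (log2 difference from IgG ± SE). The small subunit gene Cdc26 was lower, at -0.97 ± 0.10. The ligase genes of the endoplasmic reticulum Syvn1, Marchf6 and Rnf139 were all higher than IgG, by 0.73 to 1.14, and all higher than input, by 1.05 to 1.42, while Ube2j1 of the same membrane was lower in both. They were also higher in IgG than in input, by 0.28 to 0.34.

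A set of 4 rows of the array name an E2 gene beside another gene, so their signal cannot be given to either. The row of Ube2e1 and Nkiras1 read 8.99, 8.76 and 9.19 with Pum2, 9.31, 9.37 and 9.33 with IgG and 9.52, 9.60 and 9.46 in input. It was lower with Pum2 than with IgG by 0.36 (difference -0.36 ± 0.11, limma adjusted p = 0.0404 over all rows) and than in input (-0.55 ± 0.11, adjusted p = 0.00523). The row of Ube2g2 and Sumo3 gave -0.07 ± 0.08 against IgG (adjusted p = 0.588). A dim row of Ube2g2 and Mir1930, with a mean of 4.74, gave -0.40 ± 0.11 (adjusted p = 0.0306). The row of Urgcp and the pseudogene Ube2d-ps gave -0.55 ± 0.12 against IgG and -0.90 ± 0.12 against input (adjusted p = 0.0108 and 7.47e-04).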
